A study of Mus musculus with 9 samples.

Results

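The genes described here keep and read the DNA of mitochondria: Top1mt, Tfam, Tfb1m, Tfb2m, Polrmt, Polg, Polg2, Ssbp1, Tk2 and Dguok. They were taken by name, with earlier results of these data known. Every probe set that the array annotation maps to 1 of them and to no other gene was used, on every array. The 932 probe sets mapped to several genes were not searched for these genes. This gave 10 of 18194 genes and 19 of 45101 probe sets; 5 of the genes had 1 probe set and 5 had several. A probe set is a group of short oligonucleotides that reads 1 stretch of transcript, and its signal is a brightness on a linear scale.

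The arrays hold total RNA of 9 mouse T-cell lymphomas. Every tumour was labelled G3 Atm-/-TERT-ER: from a late generation of mice bred with short telomeres, without the DNA break kinase Atm, and with the catalytic subunit of telomerase joined to a hormone receptor domain that 4-hydroxytamoxifen (4-OHT) switches on. They were carried in SCID mice, hosts without mature B and T cells that keep their own myeloid cells and stroma. The 3 tumours labelled telomerase were at passage 4, as were the 5 labelled ALT (alternative lengthening of telomeres, upkeep of telomeres by recombination), and 1 tumour was the parental one, labelled telomerase-positive. Recipients were kept on 4-OHT or on vehicle; as known of the study, 4-OHT was given to the telomerase tumours and vehicle to the ALT tumours, so the drug, telomerase activity and ALT cannot be told apart. The labels do not say that the tumours within a group are independent animals or clones, and p-values then cover only the spread among these arrays, which may be technical. The parental tumour, a single array, was described and not tested. The number of arrays limits the precision.

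Mitochondria carry a small circular genome that encodes core subunits of the respiratory chain together with the rRNAs and tRNAs needed to make them. The polymerase Polrmt transcribes it, with the packaging and initiation factor Tfam and the factor Tfb2m at the promoters, and the same enzyme makes the primers for replication. Polg and its accessory subunit Polg2 copy the genome, Ssbp1 covers the single strands, Top1mt relaxes supercoils, and Tk2 and Dguok make part of the deoxynucleotides inside the organelle.

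The arrays carried the T cell markers of the label and also transcripts of other cells. Cd3d, a chain of the T cell receptor complex, read 6699.7 or more on every array. Summed over the 12 of 13 T cell markers on the array, the signal was 32080 to 35460 in the telomerase tumours and 25250 to 30980 in the ALT tumours. The markers did not move together: 3 of the 12 passed the test as higher in ALT and 3 as lower, against 7.47% and 10% of all tested genes. Cd3g read 8109 to 9633 in the telomerase and 4108 to 5848 in the ALT tumours. Cd8b1 read 366 to 544 in the telomerase and 705 to 1090 in the ALT tumours. Pancreatic acinar markers, 11 of 14 on the array, summed to 85070 to 172100 in 4 arrays (telomerase 3, ALT 1, ALT 2 and ALT 5) and to 295 to 948 in the other 5; none of the 11 passed the test. Skeletal muscle markers, 11 of 11 on the array, summed to 13510 in the parental tumour, 8867 in telomerase 1 and 248 to 603 elsewhere. Myeloid markers (8 of 8) lay between 5919 and 9453, stroma (6 of 6) between 4071 and 7281, B cell (4 of 5) between 448 and 676, adipocyte (3 of 5) between 848 and 2207 and erythroid (2 of 5) between 6.7 and 51.3. Of the members tested (10 of muscle, 8 myeloid, 6 of stroma, 2 of B cell and 1 of adipocyte) none passed in limma, and neither erythroid marker was bright enough to be tested. In such bulk samples fewer cells of a type and less RNA per cell cannot be told apart.

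Each gene was compared between the 5 ALT and the 3 telomerase tumours with limma on log2(signal + 16), the Benjamini-Hochberg adjusted p taken over all 12361 tested genes; a gene is called below 0.05. Changes are given on that log2 scale, ALT minus telomerase, and understate the change of dim genes. Of the 10 genes, 4 were called higher in ALT (Top1mt, Tfam, Tfb1m and Polg), against 7.47% of all tested genes. None was called lower, against 10% of all tested genes, and 1 (Ssbp1) had an unadjusted p under 0.05 in that direction. The 6 that were not called were Tfb2m, Polrmt, Polg2, Ssbp1, Tk2 and Dguok. As the 10 genes were chosen with earlier results of these data known, counts set beside these shares are a description and not a test. The ALT signals lay wholly above the telomerase signals in 4 genes, Polrmt among them and Polg not, against 10.9% of all tested genes. They lay wholly below in 1, Ssbp1, against 13.8%. The median change of the 10 was 0.22 and that of all tested genes -0.01; 7 of the 10 changes were positive, as were 49.2% of all. With an array left out the number called higher was 1 without telomerase 1, 2 without telomerase 2, ALT 2 or ALT 4, and 3 or 4 otherwise. Over all tested genes 923 were called higher, and 499 to 899 with an array left out. All 10 genes passed the filter on dim probe sets, Top1mt through its ALT arrays only.

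**Figure D1:**
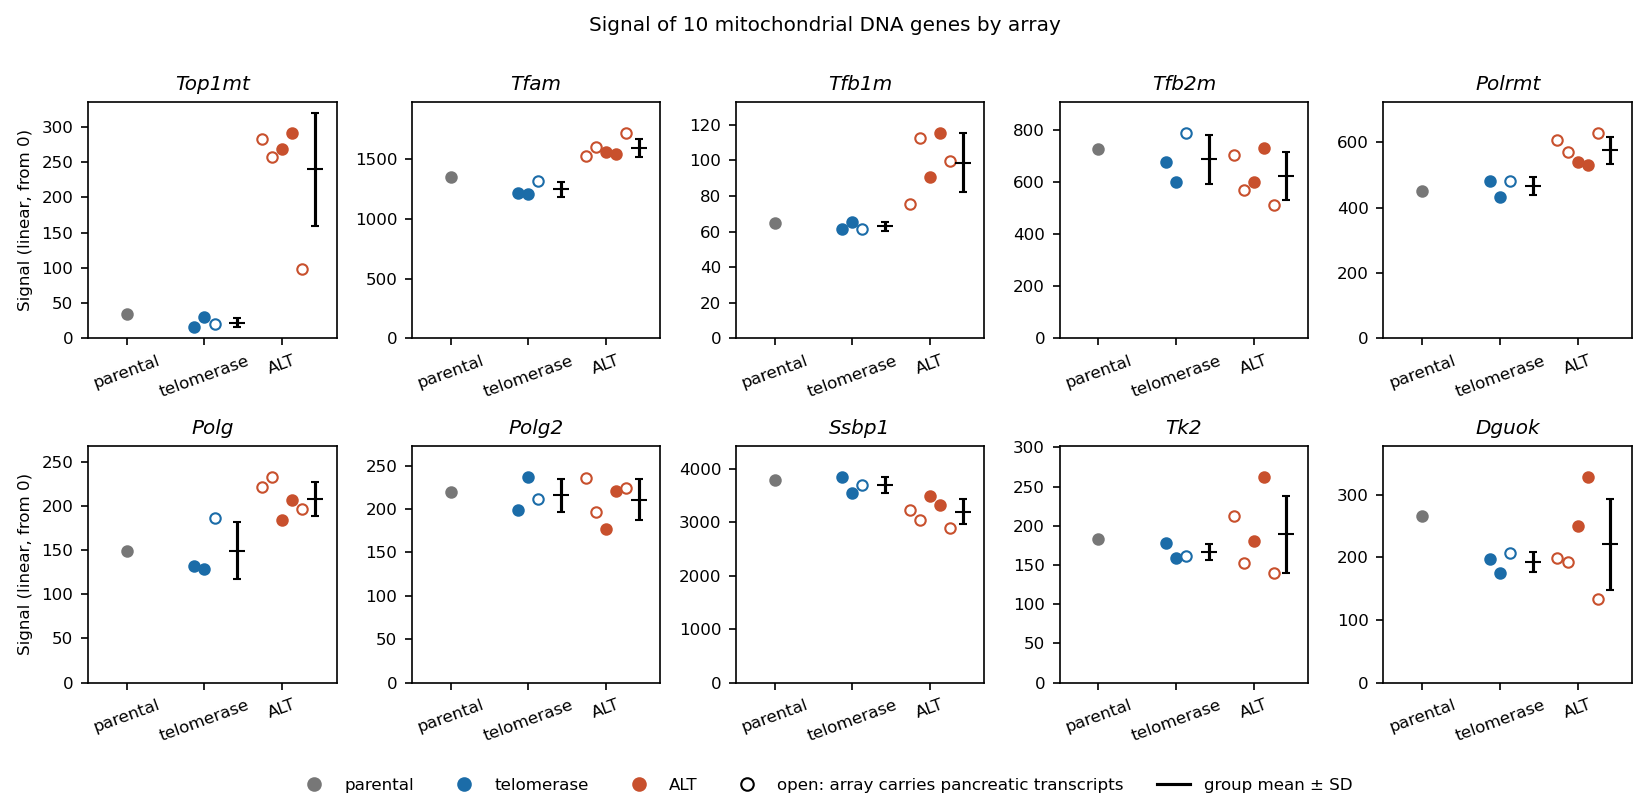
Signal (linear axis from 0) of the 10 genes on each array, 1 panel a gene, with the parental tumour, 3 telomerase tumours and 5 ALT tumours; bars are group means ± SD and open points are arrays with pancreatic transcripts. Top1mt goes from 22.5 to 240 between the group means, while the panels of Tfb2m, Polg2, Tk2 and Dguok show overlapping groups.

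The stretches before the transcription start were read first, since the array itself measures only transcripts. RefSeq promoter windows of GRCm38.p6 held 9 of the 10 genes, all but Top1mt. In the 250 bases before the start the ETS core CCGGAAG, the letters bound by Gabpa (nuclear respiratory factor 2), was found on either strand in 6 of the 9: Tfam, Polg, Ssbp1, Tk2, Polrmt and Polg2. Of all 32851 windows 6.91% hold it, and of the 12708 windows of tested genes 12.79%. It began 47 bases before the start in Tfam, 38 in Polg, 47 in Ssbp1 and 12 in Tk2, and on the opposite strand 43 in Polrmt and 29 in Polg2. The core of the Nrf1 site, GCATGCGC, was found in 1 of the 9, Polrmt, against 2.26% of all windows and 4.09% of those of tested genes. The motifs share no overlap there. A match is a run of letters and not a measured binding site. Of the 6 genes with the ETS core 2 were called higher, and of the 3 without it (Tfb1m, Tfb2m and Dguok) 1 was. The windows of 4 genes are printed 5′ to 3′ on the gene's strand with matches in capitals, Tfam and Polg as called genes with the core, Tfb1m as a called gene without it, and Polrmt as the gene with both motifs.

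Tfam, chr10:71238045-71238294, minus strand: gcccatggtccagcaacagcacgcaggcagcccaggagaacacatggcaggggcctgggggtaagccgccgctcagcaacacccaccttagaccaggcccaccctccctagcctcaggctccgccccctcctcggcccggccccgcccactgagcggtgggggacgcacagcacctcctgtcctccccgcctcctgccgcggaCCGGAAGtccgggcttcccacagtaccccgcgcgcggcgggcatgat

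Polg, chr7:79466274-79466523, minus strand: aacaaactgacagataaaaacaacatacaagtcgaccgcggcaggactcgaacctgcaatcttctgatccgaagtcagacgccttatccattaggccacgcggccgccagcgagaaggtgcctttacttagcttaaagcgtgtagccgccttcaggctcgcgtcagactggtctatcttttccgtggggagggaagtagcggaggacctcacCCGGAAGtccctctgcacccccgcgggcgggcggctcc

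Tfb1m, chr17:3557756-3558005, minus strand: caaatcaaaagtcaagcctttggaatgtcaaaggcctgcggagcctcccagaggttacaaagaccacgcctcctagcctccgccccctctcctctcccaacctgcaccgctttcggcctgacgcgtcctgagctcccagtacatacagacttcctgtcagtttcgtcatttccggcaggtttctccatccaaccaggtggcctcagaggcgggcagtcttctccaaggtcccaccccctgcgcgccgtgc

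Polrmt, chr10:79746582-79746831, minus strand: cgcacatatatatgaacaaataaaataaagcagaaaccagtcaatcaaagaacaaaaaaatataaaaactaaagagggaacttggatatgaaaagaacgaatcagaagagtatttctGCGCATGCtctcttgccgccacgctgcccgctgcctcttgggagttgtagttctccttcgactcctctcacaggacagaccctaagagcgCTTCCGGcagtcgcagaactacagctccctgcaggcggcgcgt

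The number of CpG in these windows was 19 in Tfam, 21 in Polg, 13 in Tfb1m and 13 in Polrmt. Among the other 5 genes the count ran from 11 in Dguok to 26 in Tfb2m, and the median was 15 over windows of tested genes and 6 over all windows.

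Top1mt, the topoisomerase I of mitochondria and the enzyme that relieves torsion when their DNA is transcribed or copied, rose most among the 10 genes. Its 1 probe set (1460370_at, chromosome 15) read 16.4, 30.0 and 21.0 in telomerase tumours 1 to 3. It read 283, 258, 268, 291 and 98.7 in ALT tumours 1 to 5. The parental tumour read 35.3. Every ALT tumour was thus above every other tumour, with ALT 5 well under the other ALT tumours and still above the rest. ALT 5 also carried the highest sum of acinar markers (172100). ALT 1 and ALT 2, with sums of 85070 and 132300, read 283 and 258. The part of these transcripts in the ALT 5 value was not tested. The mean went from 22.5 ± 6.91 (SD, n = 3) to 240 ± 80.0 (SD, n = 5), a ratio of 10.7. The log2 change was 2.67 (SE 0.308, 95% confidence interval 1.98 to 3.35, limma adjusted p = 0.000465). The telomerase mean lay under the filter, which corresponds to a signal of 24.2, so the gene passed the filter only through the group where it is high; with no filter the limma adjusted p was 0.000424. How far the telomerase level lies over background is unknown, which limits how exact any fold can be. With a pseudocount of 64 the change was 1.76 and with 1 it was 3.30. It was called whichever array was left out (8 of 8, 2.55 to 2.93). With a term for acinar transcripts the change was 2.80 (limma adjusted p = 0.000349). Among the 4 arrays without pancreatic transcripts it was 2.94 (limma adjusted p = 0.00116), and among the 4 with them 2.51 (limma adjusted p = 0.0523).

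The nuclear topoisomerases did not show such a change. Top1, the nuclear counterpart of Top1mt, read 2036, 2017 and 2225 in the telomerase tumours and 1967, 2064, 1808, 1823 and 2071 in the ALT tumours. Its groups overlapped, with means of 2093 ± 115 (SD, n = 3) and 1947 ± 127 (SD, n = 5) and a change of -0.10 (limma adjusted p = 0.390). Of the 5 nuclear or shared topoisomerases on the list (Top1, Top2a, Top2b, Top3a and Top3b) none was called in limma and none had an unadjusted p under 0.05; their median change was -0.04.

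Of the transcription genes, Tfam and Tfb1m rose, and Polrmt and Tfb2m did not pass. Tfam coats and bends mitochondrial DNA and starts transcription from its promoters. Its brighter probe set (1448224_at, chromosome 10) read 1216, 1203 and 1318 in the telomerase tumours and 1526, 1600.1, 1555, 1545 and 1716 in the ALT tumours, with 1346 in the parental tumour. The groups were apart, though the gap between telomerase 3 and ALT 1 was small beside the level. The mean went from 1245 ± 62.9 (SD, n = 3) to 1588 ± 76.4 (SD, n = 5), a ratio of 1.28 and a log2 change of 0.35 (SE 0.0724, 95% confidence interval 0.19 to 0.51, limma adjusted p = 0.00969). The call was lost without telomerase 1 (limma adjusted p = 0.0520), and the change was 0.35 (limma adjusted p = 0.106) in the arrays without pancreatic transcripts and 0.29 (limma adjusted p = 0.398) in those with them. The dimmer probe set (1456215_at) read 146, 139 and 121 in the telomerase tumours and 142, 133, 149.7, 131 and 103 in the ALT tumours. It overlapped and changed by -0.04 (95% confidence interval -0.33 to 0.25, limma adjusted p = 0.867 over all probe sets). With the mean of both probe sets the gene was not called (0.15, limma adjusted p = 0.176).

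Tfb1m is the methyltransferase that modifies the small mitochondrial rRNA. Its tested probe set (1449749_s_at, chromosome 17) read 61.7, 65.6 and 61.3 in the telomerase tumours, 75.4, 112, 90.8, 115 and 99.9 in the ALT tumours and 65.0 in the parental tumour. The telomerase tumours lay close together, and the ALT tumours lay above them over a wide range. The mean went from 62.9 ± 2.38 (SD, n = 3) to 98.8 ± 16.4 (SD, n = 5), a ratio of 1.57 and a log2 change of 0.53 (SE 0.141, 95% confidence interval 0.21 to 0.84, limma adjusted p = 0.0291). The call held in 3 of 8 cases with an array left out and was lost without telomerase 1, 2 or 3 and without ALT 2 or ALT 4 (limma adjusted p from 0.0529 to 0.0999). It was also lost with no filter (limma adjusted p = 0.0524), and in the arrays without or with pancreatic transcripts (changes of 0.57 and 0.52, limma adjusted p = 0.126 and 0.399). The second probe set (1435924_at) was below the filter, with 20.7, 20.1 and 7.6 in the telomerase tumours and 28.1, 32.6, 18.9, 15.6 and 23.2 in the ALT tumours, which overlap. The ending _s_at marks a probe set that can match transcripts of more than 1 gene.

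Tfb2m, the related factor that opens the promoter for the polymerase, read 675, 601 and 788 in the telomerase tumours and 704, 569, 601, 729.8 and 512 in the ALT tumours (1423441_at, chromosome 1). The parental tumour read 725. The groups overlapped, with means of 688 ± 94.4 (SD, n = 3) and 623 ± 92.0 (SD, n = 5), and the change of -0.14 (95% confidence interval -0.45 to 0.16, limma adjusted p = 0.517) was within the spread. Its sign turned in the arrays without pancreatic transcripts (0.055), and in those with them it was -0.41 (limma adjusted p = 0.394).

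Polrmt, the single-subunit RNA polymerase of mitochondria, was just outside the threshold. Its brighter probe set (1437377_a_at, chromosome 10) read 483, 433 and 482 in the telomerase tumours, 606, 569, 539.5, 529.9 and 628 in the ALT tumours and 452 in the parental tumour. Every ALT tumour was above every telomerase tumour. The means were 466 ± 28.7 (SD, n = 3) and 574 ± 42.0 (SD, n = 5), with a log2 change of 0.29 (SE 0.0923, 95% confidence interval 0.09 to 0.50, limma adjusted p = 0.0555). It was called with a filter at 60% (limma adjusted p = 0.0453), with quantile normalisation (0.0363) and with median centring (0.0485), and also when the parental tumour joined the telomerase arrays (0.0188). It was not called in any of the 8 fits with an array left out (limma adjusted p from 0.0523 to 0.190), nor with a term for acinar transcripts (0.124). With the mean of both probe sets the change was 0.15 (limma adjusted p = 0.220). The second probe set (1452835_a_at) read 223, 214 and 189 in the telomerase tumours and 192, 246, 200.5, 209.8 and 205 in the ALT tumours. These overlapped, and the change was 0.01 (limma adjusted p = 0.962).

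**Figure D2:**
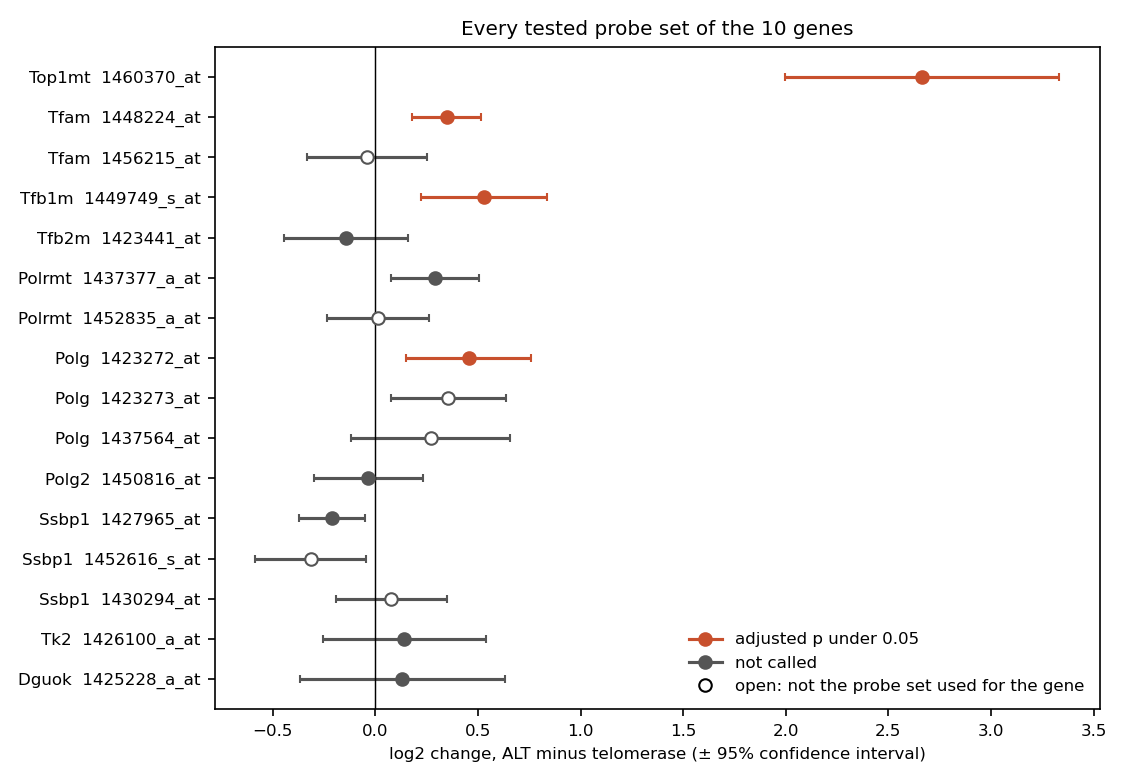
Log2 change, ALT minus telomerase, of the 16 tested probe sets of the 10 genes with 95% confidence intervals, from the fit over all probe sets; filled circles are the probe sets used for the genes, and red marks an adjusted p under 0.05. The interval of Top1mt is far to the right of the others. Those of Tfb2m, Polg2, Tk2 and Dguok include 0. So do those of Tfam 1456215_at, Polrmt 1452835_a_at, Polg 1437564_at and Ssbp1 1430294_at.

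Of the replication genes Polg rose, Polg2 did not pass, and Ssbp1 was lower without passing. Polg is the catalytic subunit of the polymerase that copies and repairs mitochondrial DNA. The probe set used for it (1423272_at, chromosome 7) read 133, 129 and 187 in the telomerase tumours, 222, 233, 184, 207 and 197 in the ALT tumours and 149 in the parental tumour. The groups overlapped by 1 array: telomerase 3, the only telomerase array with pancreatic transcripts, read above ALT 3. The mean went from 149 ± 32.5 (SD, n = 3) to 209 ± 19.4 (SD, n = 5), a ratio of 1.40 and a log2 change of 0.45 (SE 0.136, 95% confidence interval 0.15 to 0.76, limma adjusted p = 0.0456). This call held in 2 of 8 cases with an array left out, those without telomerase 3 or ALT 3; without telomerase 1, telomerase 2, ALT 1, ALT 2, ALT 4 or ALT 5 the limma adjusted p was from 0.0562 to 0.177. It was lost as well with no filter (limma adjusted p = 0.0703), with the mean of its probe sets (0.0773) and with a term for acinar transcripts (0.0801). The change was 0.53 in the arrays without pancreatic transcripts (limma adjusted p = 0.098) and 0.20 in those with them (limma adjusted p = 0.702).

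Both other Polg probe sets were higher in the mean of ALT and not called. The probe set 1423273_at read 44.4, 50.5 and 53.1 in the telomerase tumours and 76.9, 68.5, 55.7, 69.9 and 67.9 in the ALT tumours, without overlap (change 0.36, limma adjusted p = 0.0766). The probe set 1437564_at read 48.4, 31.9 and 62.8 against 69.3, 69.1, 54.5, 50.8 and 54.3, with overlap (change 0.27, limma adjusted p = 0.333).

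Polg2 is the subunit that holds the polymerase on its template. It read 199, 237 and 212 in the telomerase tumours, 236, 196, 177, 221 and 224 in the ALT tumours and 219.7 in the parental tumour (1450816_at, chromosome 11). The means, 216 ± 19.3 (SD, n = 3) and 211 ± 23.7 (SD, n = 5), differed by less than the spread, with a change of -0.03 (95% confidence interval -0.30 to 0.23, limma adjusted p = 0.873). The sign turned with quantile normalisation (0.035), in the arrays with pancreatic transcripts (0.042) and without telomerase 2 or ALT 3 (0.030 and 0.022).

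Ssbp1, the protein that binds the exposed single strand at the replication fork, was lower in every ALT tumour and not called. The brightest probe set (1427965_at, chromosome 6) read 3840, 3548 and 3691 in the telomerase tumours, 3217, 3043, 3485, 3313 and 2883 in the ALT tumours and 3788 in the parental tumour. The means were 3693 ± 146 (SD, n = 3) and 3188 ± 234 (SD, n = 5), with a log2 change of -0.21 (SE 0.0725, 95% confidence interval -0.38 to -0.05, limma adjusted p = 0.0712). Without ALT 3 it was called (limma adjusted p = 0.0483), as it was when the parental tumour joined the telomerase arrays (0.0255). In the arrays without pancreatic transcripts the change was -0.12 (limma adjusted p = 0.496) and in those with them -0.28 (limma adjusted p = 0.362).

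A second Ssbp1 probe set (1452616_s_at) read 1533, 1537 and 1549 in the telomerase tumours and 1418, 1154, 1333, 1363 and 964 in the ALT tumours. It was lower in ALT without overlap and was not called (change -0.31, limma adjusted p = 0.102). The dim probe set 1430294_at went the other way by less than the spread (91.7, 92.7 and 104 against 111, 106, 81.6, 110.5 and 104, change 0.08, limma adjusted p = 0.71). The remaining pair was below the filter. Of these, 1452617_at read 24.7, 25.1 and 22.4 against 14.4, 6.91, 10.7, 9.53 and 21.9, each ALT tumour lower, and 1444053_at read 38.4, 12.2 and 18.9 against 20.3, 20.5, 16.4, 7.32 and 13.1, with overlap.

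**Figure D3:**
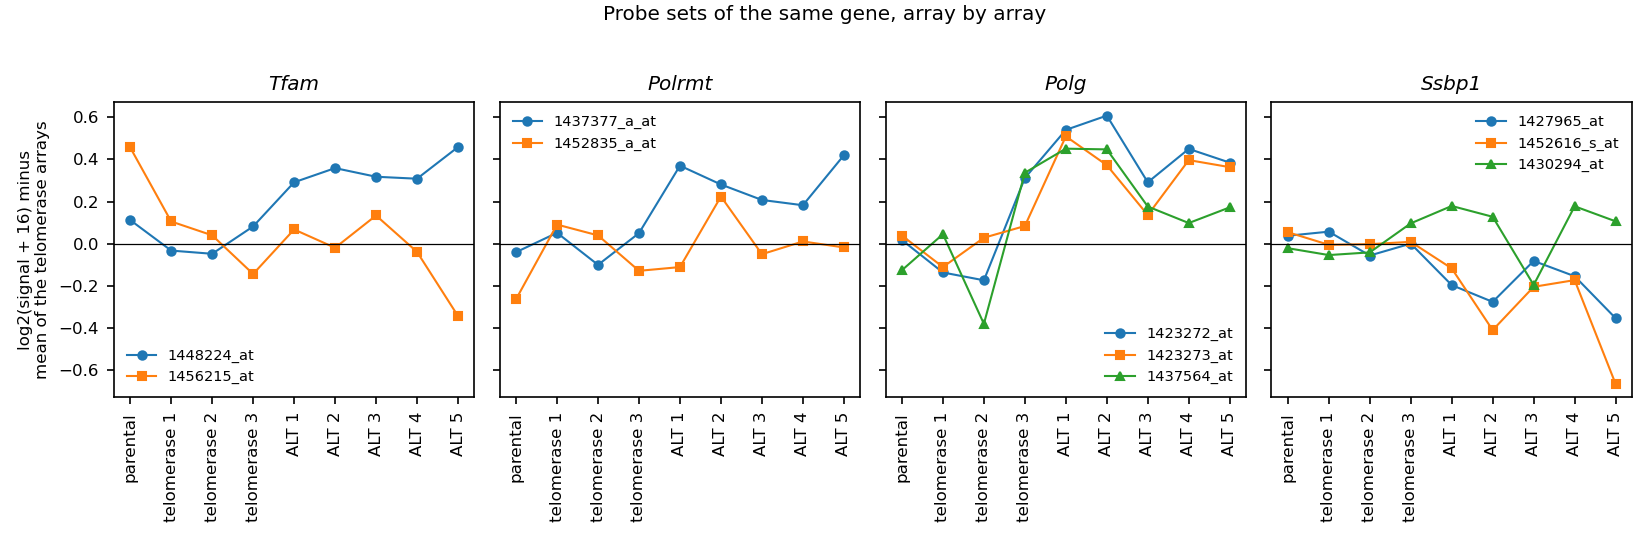
Log2(signal + 16) minus the mean of the 3 telomerase arrays, array by array, for the tested probe sets of Tfam, Polrmt, Polg and Ssbp1. Each line is 1 probe set. Arrays stand by group (parental, telomerase, then ALT), and the order within a group has no meaning. In every ALT array the line of the brighter Tfam probe set lies above that of the dimmer, and in ALT 5 the signals were 1716 and 103. In the parental array it lies below (0.11 against 0.46).

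Neither kinase of the mitochondrial nucleotide supply passed. Tk2 phosphorylates thymidine and deoxycytidine inside the organelle. It read 178, 159.5 and 162 in the telomerase tumours, 212, 152, 181, 262 and 139.7 in the ALT tumours and 183 in the parental tumour (1426100_a_at, chromosome 8). The ALT values spanned the telomerase values on both sides, with means of 166 ± 9.97 (SD, n = 3) and 189 ± 49.3 (SD, n = 5) and a change of 0.14 (95% confidence interval -0.26 to 0.54, limma adjusted p = 0.640). Dguok phosphorylates the purine deoxynucleosides. It read 197, 174 and 207 in the telomerase tumours, 199, 193, 250.3, 328 and 133 in the ALT tumours and 266 in the parental tumour (1425228_a_at, chromosome 6). Its groups overlapped as well, with means of 193 ± 16.6 (SD, n = 3) and 221 ± 73.1 (SD, n = 5) and a change of 0.13 (95% confidence interval -0.38 to 0.64, limma adjusted p = 0.745). In both genes ALT 4 was the highest and ALT 5 the lowest ALT tumour. For Dguok the change was 0.59 (limma adjusted p = 0.106) in the arrays without pancreatic transcripts and -0.24 (limma adjusted p = 0.722) in those with them; the part of those transcripts in the result was not tested. For Tk2 the same values were 0.34 (limma adjusted p = 0.367) and 0.03 (limma adjusted p = 0.971).

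Fitted on their own over all 27022 tested probe sets, 16 of the 19 probe sets passed the filter and 4 were called higher, each the probe set used for its gene, against 7.06% of tested probe sets. None was called lower, against 11.7%, and 2 of Ssbp1 had an unadjusted p under 0.05 in that direction. The ALT signals lay wholly above the telomerase signals in 5 of the 16, against 9.9% of tested probe sets, and wholly below in 2, both of Ssbp1, against 15.5%. No called gene with several tested probe sets (Tfam and Polg) had all of them called. Of 1249 called genes with several tested probe sets, 345 (27.6%) had all of them called the same way.

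The parental tumour lay nearer to the telomerase mean in 8 of the 10 genes and nearer to the ALT mean in Tk2 and Dguok. It fell inside the telomerase range in 6 and above it in Top1mt, Tfam, Tk2 and Dguok. These are single values without replicates.

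Lists of other genes covered mitochondrial DNA upkeep and transcription, RNA processing, nucleotide supply, topoisomerases, regulators, mitochondrial content and genes encoded by mitochondrial DNA. They were read in the same fit: of 128 genes 108 were on the array and 107 were tested. Of these 10 were called higher and 12 lower, 20.6% in all against 17.5% of all tested genes, with a median change of -0.04. With quantile normalisation the counts were 11 and 5. Over all tested genes the counts higher and lower then went from 923 and 1238 to 1114 and 1029.

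Of 21 tested genes of replication and repair 1 was called in each direction, 9.52% in all against 17.5% of all tested genes. The helicase Pif1 rose from 312 ± 17.0 (SD, n = 3) to 488 ± 96.8 (SD, n = 5), a change of 0.59 (limma adjusted p = 0.0359), with ALT 1 at 325 inside the telomerase range. Primpol, a primase that restarts stalled forks, fell from 185 ± 33.3 to 121 ± 23.3, a change of -0.56 (limma adjusted p = 0.0443), with ALT 5 at 152.2 just above telomerase 3 at 151.8. With an array left out, a gene of this list was called higher in 1 of 8 fits (without ALT 1) and lower in 2 (without telomerase 3 or ALT 5). Twnk, the helicase of the mitochondrial replication fork, changed by 0.17 and was not called (limma adjusted p = 0.438). Of 8 tested transcription genes other than those above, 1 was called (12.5%). Mterf3, a factor that represses mitochondrial transcription, fell from 1245 ± 40.2 to 832 ± 87.6 without overlap, a change of -0.58 (limma adjusted p = 0.00348).

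Of 18 genes of RNA processing and stability 2 rose and 1 fell, 16.7% in all against 17.5% of all tested genes. Pnpt1, a 3′ to 5′ exoribonuclease, read 558 ± 8.90 in the telomerase and 815 ± 79.5 in the ALT tumours (change 0.53, limma adjusted p = 0.00452). Mtpap, the poly(A) polymerase of mitochondria, read 746 ± 93.8 and 1109 ± 86.8 (change 0.57, limma adjusted p = 0.00492). Fastkd3, an RNA-binding protein of the FASTK family, read 519 ± 43.7 and 337 ± 39.3 (change -0.60, limma adjusted p = 0.00555). In all 3 the groups did not overlap, and with an array left out 2 or 3 genes of the list were called higher and 1 lower.

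The list of nucleotide supply had the most calls, 9 of 24 tested genes (37.5%), with 2 higher and 7 lower and a median of -0.10. Of all tested genes 17.5% were called, 7.47% higher and 10% lower. Nt5c, a 5′ nucleotidase for deoxynucleotides, fell from 1061 ± 85.0 to 821 ± 56.4 (change -0.36, limma adjusted p = 0.0210). Cmpk2, a mitochondrial nucleoside monophosphate kinase, fell from 51.5 ± 19.0 to 21.1 ± 5.76 (change -0.84, limma adjusted p = 0.0232); its ALT mean lay under the filter, so it passed only through the telomerase arrays and the size of its change is uncertain. Dctd, the deoxycytidylate deaminase, fell from 225 ± 14.5 to 163 ± 17.8 (change -0.43, limma adjusted p = 0.0254). In these 3 the groups did not overlap. Suclg2, a subunit of the GTP-forming succinyl-CoA synthetase, rose from 644 ± 13.0 to 821 ± 65.8 (change 0.34, limma adjusted p = 0.0274). The others, read after their values were seen, were Ak3, higher, and Tk1, Abat, Rrm2b and Dtymk, lower. Tk1, the cytosolic thymidine kinase, had a change of -0.50 (limma adjusted p = 0.0317), and Rrm2b, the ribonucleotide reductase subunit of resting cells, had -0.41 (limma adjusted p = 0.0432). These calls depended on single arrays, and calls over all tested genes changed as well. Those went from 923 higher and 1238 lower to 499 and 653 without telomerase 1, and to 618 and 831 without telomerase 2. They were 697 and 895 without telomerase 3, 778 and 981 without ALT 1, and 770 and 1004 without ALT 2. Without ALT 3 they were 838 and 1119, without ALT 4 821 and 1259, and without ALT 5 899 and 1165. Without telomerase 2 none of the 24 was called; without telomerase 1 it was 1, without telomerase 3 it was 3, without ALT 2 or ALT 3 it was 4, and without ALT 1 or ALT 5 it was 5, in place of 9. Without ALT 4 the counts higher and lower in the list were 2 and 5. They were 2 and 3 with quantile normalisation, and 2 and 4 with median centring or no filter. With the mean of probe sets they were 1 and 5, and with a term for acinar transcripts 1 and 2. Among arrays without pancreatic transcripts 1 was higher and 1 lower, and among those with them none was called.

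Of 10 tested regulators of the nuclear genes for mitochondria 3 rose and none fell, against 7.47% and 10% of all tested genes. Pprc1, a coactivator of the PGC-1 family, rose from 647 ± 33.9 to 957 ± 91.5 (change 0.55, limma adjusted p = 0.00397). Ppargc1b, another member of that family, rose from 711 ± 94.4 to 1107 ± 207 (change 0.62, limma adjusted p = 0.0236), and Sp1, a general transcription factor, from 1633 ± 82.0 to 1951 ± 107 (change 0.25, limma adjusted p = 0.0386). Nrf1 and Gabpa, whose motifs were searched above, were not called, with changes of 0.24 (limma adjusted p = 0.101) and -0.28 (limma adjusted p = 0.0989). Ppargc1a was below the filter. Without telomerase 1 or telomerase 3 the list had 1 gene called higher in place of 3.

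Genes used as measures of mitochondrial content did not move one way. Of 22 tested, 2 were higher (Cox4i1 by 0.24 and Tomm20 by 0.28), 2 were lower (Atp5b by -0.19 and Vdac3 by -0.25) and the median was -0.02. In all 18.2% were called, against 17.5% of all tested genes. Without telomerase 1 or telomerase 2 none of the 22 was called; without telomerase 3 or with an ALT array left out, 1 or 2 were higher and 0 to 3 lower. Of the transcripts made from mitochondrial DNA the annotation held 1 of 15 listed, ND5, a subunit of complex I. It read 5718, 4015 and 4684 in the telomerase tumours, 5476, 4559.9, 4646, 4898 and 2669 in the ALT tumours and 4728 in the parental tumour. Its groups overlapped, with the lowest value in ALT 5, and the change was -0.14 (limma adjusted p = 0.707).

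**Figure D4:**
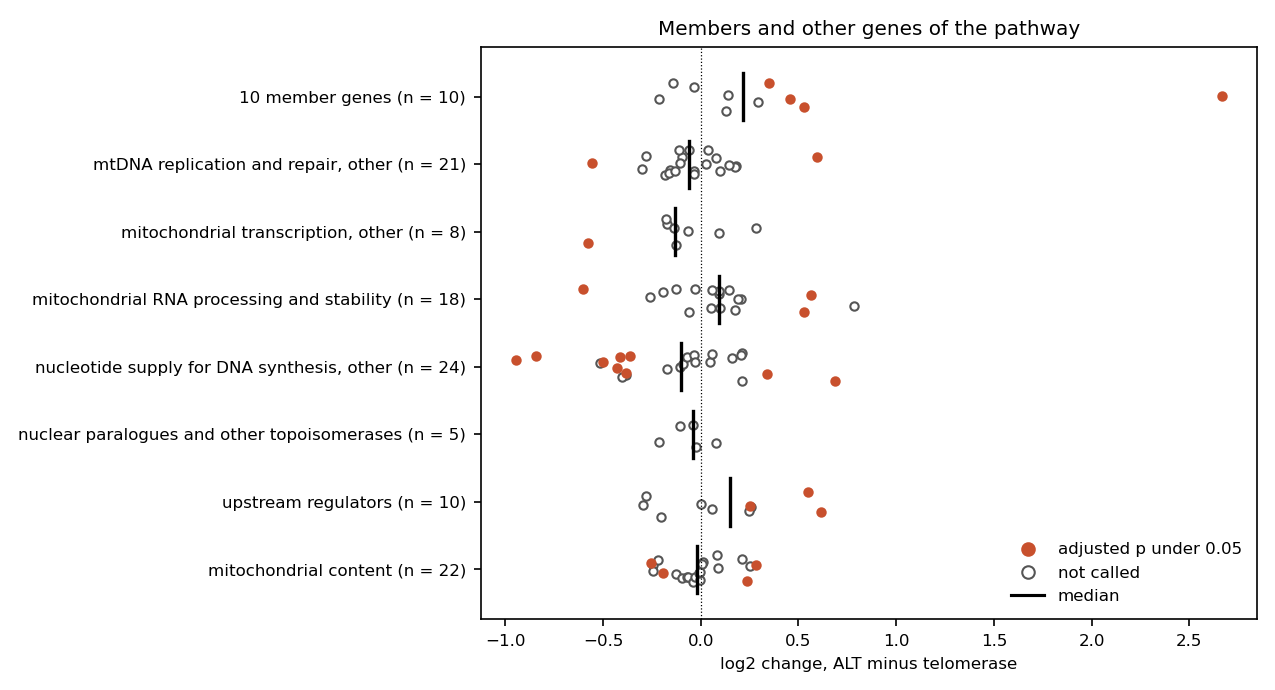
Log2 change, ALT minus telomerase, of the 10 genes and of the tested genes of 7 lists, 1 circle a gene, red where the adjusted p is under 0.05, with a bar at the median; the single mitochondrially encoded gene is left out. The 9 called genes of nucleotide supply lie mostly left of 0, and the medians of the 7 lists lie between -0.13 and 0.15.

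Chromosome neighbours were read with 10 tested genes on each side. Around Top1mt 4 of 20 neighbours were called higher and 2 lower, with a median of 0.13; on chromosome 15 as a whole 9.11% of tested genes were called higher and 7.29% lower. Read after their values were seen, these were Ly6d (2.94, limma adjusted p = 0.00129), Ccdc166 (1.62, limma adjusted p = 0.00032), Ly6k (0.66) and Gsdmd (0.38), and Gfus (-0.38) and Zfp623 (-0.82). The adjacent tested genes, 2810039B14Rik and Rhpn1, changed by 0.08 and 0.26 and were not called. Around Tfam 1 of 20 was called higher and none lower, against 7.41% and 8.07% on chromosome 10. Around Tfb1m, with fewer tested genes on 1 side, 1 of 13 was called lower, against 4.35% on chromosome 17. Around Polg 2 of 20 were called lower, against 5.61% on chromosome 7. The neighbours of Tk2, a gene that was not called and was added after its values were seen, had 5 of 20 called higher and none lower, with a median of 0.35. On chromosome 8 as a whole, 18.6% of tested genes were called higher.

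**Figure D5:**
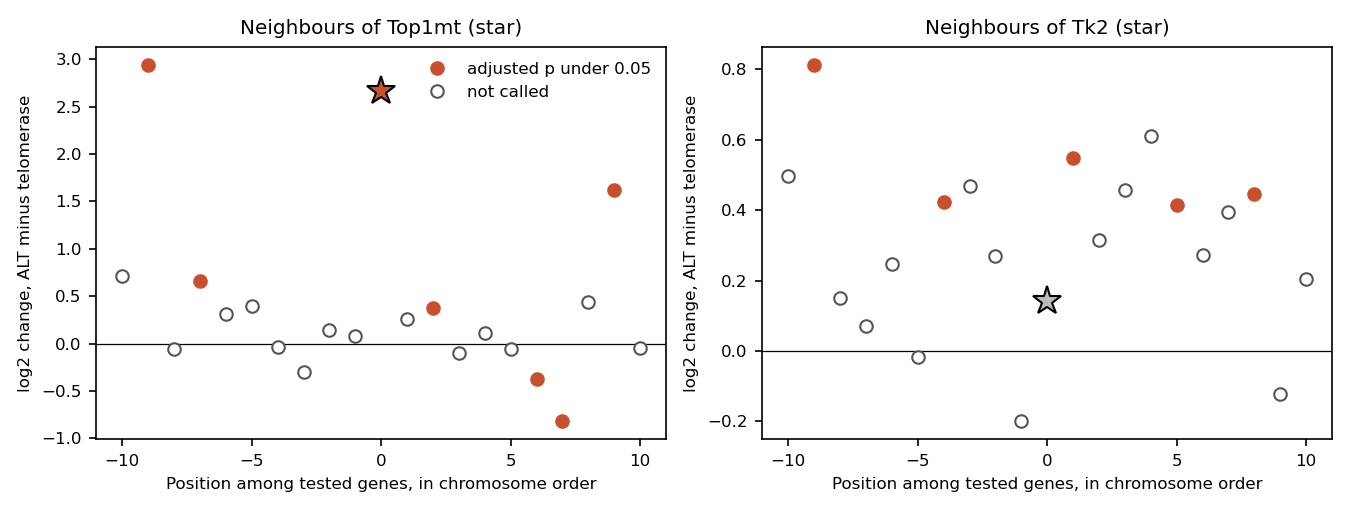
Log2 change, ALT minus telomerase, of the 10 tested genes on each side of Top1mt and of Tk2 in chromosome order, with the gene itself as a star; red marks an adjusted p under 0.05 and the vertical scales differ between panels. Next to Top1mt the changes are 0.08 and 0.26, against 2.67 for the gene itself.

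For each called gene the 5 tested genes with the highest Pearson correlation of log2 values over all 9 arrays were listed as a description; the arrays are those of the groups compared, so the difference between groups is part of each correlation. For Top1mt these were Cpeb1 (r = 0.987), Tex14 (0.984), Lims2 (0.983), Btk (0.982) and Slc6a13 (0.982), all called in the same comparison. For Tfam they were Kbtbd7 (0.990), Rora (0.979), Sntb1 (0.976), Hipk3 (0.974) and D230025D16Rik (0.972). For Tfb1m they were Csk (0.978), 1500015A07Rik (0.973), Usp10 (0.971), Itgb7 (0.964) and Dusp19 (0.959). For Polg they were Tmcc3 (0.979), Acp5 (0.975), Mbtps1 (0.969), Ascc1 (0.969) and Aldh1a1 (0.967), of which 3 were not called.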

How the data were processed

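The authors deposited 1 MAS5 intensity per probe set and array, on a linear scale, per the submitters' processing notes; its settings and scaling were not stated in the sources used. Array medians lay between 39.8 and 43.8, and no further normalisation was applied. The table has no detection calls. Groups came from the submitters' labels. The array annotation gave 34958 probe sets a single gene. For each gene the probe set with the highest mean log2 over all 9 arrays was kept, and probe sets in the lowest 40% were not tested. Values were fitted as log2(intensity + 16) with limma 3.58.1 in R 4.3.3 (intensity trend, two-sided), after a test of the script on simulated data. A second fit took every probe set. Named genes were all 10 members, up to 4 called genes of each list with the smallest p, Top1, neighbours and the 5 most alike genes. Members and lists were chosen with earlier results of these data known. Alternatives were another filter, pseudocount, normalisation, probe set rule, variance model or threshold, the parental tumour added, a replicate block, acinar transcripts as a term or a split, and each array left out. Plots were drawn with Python 3.11.15 and matplotlib 3.10.9.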

Additional observations from a re-analysis of the deposited data

Results flagged for a closer look

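Of the 19 probe sets, 2 had an ALT tumour far from the other 4, by a gap over range above 0.71, which chance gives in about 1 in 20 groups. Top1mt read 98.66 in ALT 5, where the nearest ALT tumour read 257.79 (gap over range 0.827). Without ALT 5 the Top1mt change was 2.93. The Ssbp1 probe set 1430294_at read 81.59 in ALT 3, where the nearest ALT tumour read 104.35 (gap over range 0.785).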

How the results depend on the processing

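Each member was refitted under 24 alternatives. The 4 member genes called higher became 2 with no expression filter, 2 with the mean of all probe sets and 1 with the replicate block. They became 1 in the arrays without pancreatic transcripts, 1 at a log2 change of at least 1, and 1 to 4 with an array left out. The count was 5 with a filter at 60%, quantile normalisation, median centring, the parental tumour added, or an adjusted p of 0.1. The 0 called lower became 1 with the parental tumour in the telomerase group, 1 at an adjusted p of 0.1, and 0 to 1 with an array left out. For member probe sets the 4 called higher became 1 with the replicate block, 1 without and 1 with pancreatic transcripts, 1 at a log2 change of at least 1, and 1 to 4 with an array left out; the 0 called lower became 2 with the parental tumour, 1 at an adjusted p of 0.1, and 0 to 1. The 10 pathway genes called higher became 5 with the mean of probe sets, 3 with the replicate block, 3 without and 0 with pancreatic transcripts, 0 at a log2 change of at least 1, and 3 to 9 with an array left out. The 12 called lower became 7 with no filter, 5 with quantile normalisation, 3 with the replicate block, 7 with no intensity trend, 2 without and 0 with pancreatic transcripts, 5 with a term for acinar transcripts, 0 at a log2 change of at least 1, and 2 to 9 with an array left out. Over all tested genes the 923 called higher became 817 with no filter, 711 with the mean of probe sets and 368 with the replicate block. They became 375 without pancreatic transcripts, 181 at a log2 change of at least 1, and 499 to 899 with an array left out. The 1238 called lower became 1096, 1173, 614, 462, 268, and 653 to 1259 in the same fits. The counts higher and lower were 882 and 1181 with a filter at 60%, and 1114 and 1029 with quantile normalisation. They were 869 and 1123 with median centring, 1278 and 1755 with the parental tumour added, and 1348 and 1739 at an adjusted p of 0.1. The cause was not tested. Fits on part of the arrays have fewer samples, and the fit on arrays with pancreatic transcripts has 1 telomerase tumour, whose spread was taken to be that of the ALT tumours. The sign turned for Tfb2m without pancreatic transcripts (0.055), for Polg2 with quantile normalisation (0.035), with pancreatic transcripts (0.042) and without telomerase 2 or ALT 3 (range over arrays left out -0.087 to 0.030), and for Dguok with pancreatic transcripts (-0.24) and without ALT 4 (range -0.019 to 0.28). With each group's mean subtracted, same-numbered telomerase and ALT tumours correlated at -0.299, -0.396 and -0.571. In each of these pairs 1 array carried pancreatic transcripts and the other did not. The values thus cannot show whether the numbers pair the tumours. With that number as a replicate block 1 member, Top1mt, was called (2.91, limma adjusted p = 0.00137). Without detection calls, how far dim probe sets such as Top1mt in telomerase tumours lie over background is unknown.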
